A study of Mus musculus with 2 samples.

Results

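The cells described here were the deeply sequenced cells of the retinal pigment epithelium (RPE), a pigmented sheet between the neural retina and the choroid, in eye cups taken from mice at e15.5 of gestation. A unique molecular identifier (UMI) tags 1 captured transcript so that its PCR copies are counted once, and each cell was judged by its UMIs. A member had at least 200 genes, at least 2000 UMIs and at most 15% of its UMIs from mitochondrial genes. It also had UMIs of at least 3 of 7 pigment cell genes (Tyr, Mlana, Trpm1, Gpr143, Oca2, Slc45a2 and Rlbp1), at least 5 UMIs of Pmel, no UMI of Pax3, Kit or Ednrb, which mark melanocytes of the neural crest, and less than 5% of its UMIs from haemoglobin genes. These limits gave 218 members among 26897 barcodes, 153 of 13017 in the control library and 65 of 13880 in the mutant library. The members were thus selected on their own UMI counts of these genes, whose levels below describe the members and are not a finding about them.

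The control embryos were Myrf fl/fl, with loxP sites in both copies of Myrf, and the mutant embryos were Rx>cre Myrf fl/fl, which carry the same alleles and express Cre recombinase under Rx regulatory sequence from the early eye field on. Each genotype was represented by 1 library, made with the 10x Genomics 3′ chemistry from 3 pooled eye cups from which cornea, lens and optic nerve had been taken away before papain digestion. Cre under Rx acts in the precursors of both neural retina and RPE, so neither tissue is a wild-type reference in the mutant. All differences between genotypes below are therefore differences between 2 libraries, without a replicate check, and the 95% intervals cover counting error only.

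The RPE takes up retinoids from the choroidal blood and converts them for the photoreceptors, and it moves lactate, ions and water. It also takes up and breaks down shed photoreceptor membranes and carries melanin in melanosomes. The epithelium arises from the optic vesicle, where MITF and OTX2 set the pigment cell programme and PAX6 and LHX2 are shared with the neural retina. MYRF is a membrane-bound transcription factor whose cut amino-terminal part enters the nucleus. It is best known as an activator of myelin genes in oligodendrocytes. Transthyretin, the product of Ttr, carries thyroid hormone and the retinol-binding protein and is secreted by the RPE and the choroid plexus.

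The median control member had 12658 UMIs and 3613 genes, the median mutant member had 11968 UMIs and 3663 genes, and the deepest cells held 41127 and 36382 UMIs. They made up 1.57% of the quality-filtered control cells (95% Clopper-Pearson interval 1.34 to 1.84) and 0.607% of the mutant cells (0.469 to 0.773), a ratio of 0.386 (0.284 to 0.519). No barcode was shared between members of the 2 libraries, although 69 barcodes occurred in both libraries as a whole. A UMI of the Y-linked genes Ddx3y, Eif2s3y, Kdm5d or Uty was found in 0 of 153 control members and in 26 of 65 mutant members. For the control, the 95% Clopper-Pearson interval reaches up to 2.38%, and 3 of 153 cells would be 1.96%. The 2 libraries thus differed in sex makeup as well as in genotype. The part of sex in the differences below was not tested beyond the values for Xist cells, which are the members with an Xist UMI and without a Y-linked one.

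Most members were well inside the limits on pigment genes. UMIs in all 7 pigment genes were found in 40 control and 13 mutant members and in 6 of them in 50 and 16, while 14 and 13 members had the minimum of 3. Just inside the limit on Pmel were 12 control and 7 mutant members with 5 to 7 UMIs, and just outside it were 6 and 6 cells with 2 to 4. Just below the limit on pigment genes were 7 control and 7 mutant cells that had 2 of them and met every other limit. The melanocyte genes took out many more cells, 155 in the control and 82 in the mutant, of which 105 and 57 had UMIs of Kit or Ednrb but none of Pax3. These 105 and 57 cells had Otx2 at 401 and 403 CPM (UMIs of the gene per 1e+06 UMIs summed over the cells), a level close to that of the members. A single Kit UMI was the whole Kit count of 52 and 21 of the cells left out without Pax3. A Kit UMI was also found in 11.4% and 11.2% of retinal progenitors of the 2 libraries. Adding these cells back was 1 of the alternative settings.

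Of the 6 markers of the label, Krt18 and Ttr were not used in the rule and can check it, whereas the levels of Pmel, Trpm1, Mlana and Rlbp1 were set in part by the choice of cells. Pmel, the protein of the melanosome fibrils, was at 7994 CPM in control and 6705 CPM in mutant members. Trpm1, a cation channel of pigment cells, was at 2356 and 2117 CPM, and the melanosome protein gene Mlana was at 1191 and 998 CPM. Krt18, a keratin of simple epithelia, had UMIs in 150 of 153 and 63 of 65 members. Its levels of 1745 and 1507 CPM were 47.3-fold and 57.2-fold above those of the remaining cells of each library. The remaining cells include the 105 control and 57 mutant pigment cells left out for Kit or Ednrb without Pax3. These left-out cells held 2098091 and 1081496 UMIs of the 114340766 and 119909137 in all remaining cells. Rlbp1, which encodes the retinaldehyde-binding protein CRALBP, was at 313 CPM in control and 167 CPM in mutant members. It had UMIs in 86.9% and 73.8% of the members. Ttr was found in far fewer, with UMIs in 49 of 153 control members (32.0%) and in 14 of 65 mutant members (21.5%), against 1.08% and 0.737% of retinal progenitors, whose median depths were 10596 and 9595 UMIs. Melanocytes were taken as cells with at least 5 Pmel UMIs and UMIs in at least 2 of Pax3, Kit and Ednrb. They had a Ttr UMI in 29.2% and 31.7% of cells, so this share did not set the members apart from them. Krt18 was found in 16.9% and 34.1% of the melanocytes, and Otx2 in 12.3% and 39.0%. Genes of the mature RPE were nearly absent at this age: Rpe65, the retinoid isomerase, had 0 UMIs in members of either library, and Best1, a chloride channel, had 2 and 1.

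Beyond the genes of the rule, the control members stood out from the remaining cells by Pcp4, a small calmodulin-binding protein, at 84.1-fold, by the amino acid transporter gene Slc38a8 at 55.9-fold, by the tetraspanin gene Tspan10 at 49.1-fold and by the lactate exporter gene Slc16a8 at 44.3-fold. The bicarbonate transporter gene Slc4a5 was 40.8-fold higher and Gpnmb, a melanosomal and lysosomal glycoprotein, 42.6-fold higher. The same 6 genes were 257-fold, 159-fold, 68.9-fold, 39.3-fold, 67.0-fold and 68.7-fold higher in mutant members than in the remaining mutant cells, in the order Pcp4, Slc38a8, Tspan10, Slc16a8, Slc4a5 and Gpnmb. The pigment cells left out of the members are part of the remaining cells, so these folds depend on them and were not compared between libraries. Among the 10 genes with the highest levels in the control, Pmel and Ftl1, the ferritin light chain, stood beside mitochondrial and housekeeping genes, with Ftl1 at 9027 and 8154 CPM in the 2 libraries. Melanocytes of the neural crest, by contrast, were recognised by Sox10, at 308 and 341 CPM in the pigment cells left out for Pax3. The paper reports Sox10 in control RPE as well, and its loss in mutant RPE. Here Sox10 had 19 UMIs in 15 control members and 0 in mutant members, too few for the comparisons below. Of the 19, 12 were in 8 of 28 control cells with at least 2000 CPM Ttr, at 45.4 CPM (23.5 to 79.4). Control cells without a Ttr UMI had 5, at 3.44 CPM (1.12 to 8.02). Pigment cells left out without Pax3 had Sox10 at 17.2 and 15.7 CPM, in 21.0% and 7.02% of cells. The source of the UMIs in members was not tested.

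**Figure D1:**
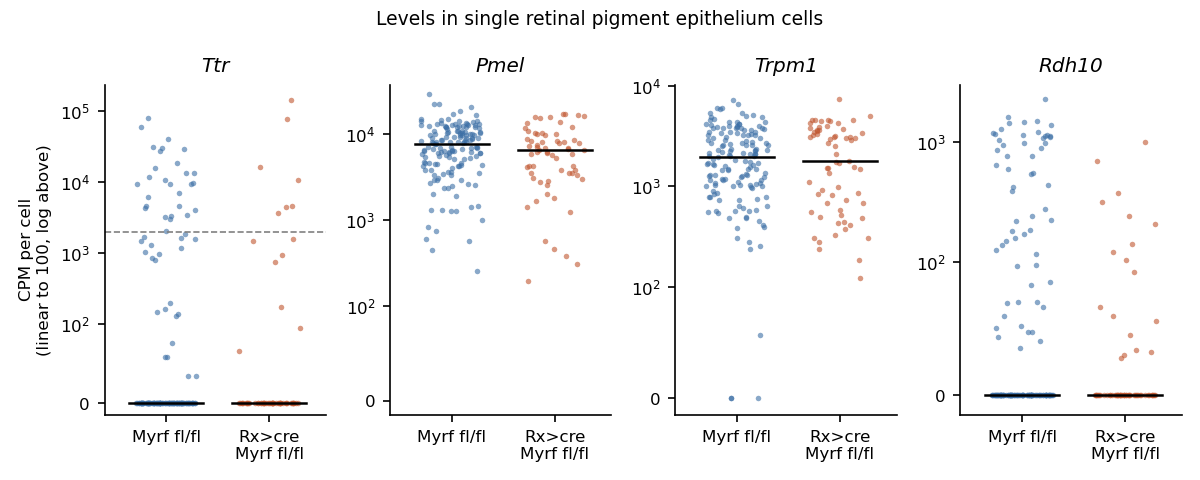
Each point is 1 RPE cell, with its level of Ttr, Pmel, Trpm1 or Rdh10 in CPM of its own UMIs on an axis that is linear up to 100 and logarithmic above, for 153 Myrf fl/fl and 65 Rx>cre Myrf fl/fl cells. Black lines are medians and the dashed line is the limit of 2000 CPM for Ttr-rich cells. Pmel and Trpm1 form a single cloud in each library, whereas most cells have no Ttr UMI and the others spread up to 78934 CPM (control) and 143761 CPM (mutant).

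The promoters of the pigment genes give the sequence side of this programme. The M-box, TCATGTG, is the motif that MITF is known to bind in pigment cell genes, and it was searched on both strands of the 250 bases before each RefSeq transcript start (GRCm38.p6). It was found in 3.25% of 32851 promoters. Of the 9 genes for melanin synthesis and the melanosome matrix, 5 had a promoter in the table and 4 of these held it, namely Tyr, Tyrp1, Dct and Slc24a5. Trpm1 held it as well. The sequences of 4 genes are shown because they carry the motif, in capitals, in pigment genes of the members, of which Tyr and Trpm1 are part of the rule, and run 5′ to 3′ on the coding strand up to the base before the start.

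Tyr, chr7:87493513-87493762, minus strand: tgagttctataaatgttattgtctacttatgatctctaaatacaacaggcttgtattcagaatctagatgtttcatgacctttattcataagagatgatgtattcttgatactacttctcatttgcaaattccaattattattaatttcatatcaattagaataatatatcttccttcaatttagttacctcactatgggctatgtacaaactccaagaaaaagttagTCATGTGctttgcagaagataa
Tyrp1, chr4:80833963-80834212, plus strand: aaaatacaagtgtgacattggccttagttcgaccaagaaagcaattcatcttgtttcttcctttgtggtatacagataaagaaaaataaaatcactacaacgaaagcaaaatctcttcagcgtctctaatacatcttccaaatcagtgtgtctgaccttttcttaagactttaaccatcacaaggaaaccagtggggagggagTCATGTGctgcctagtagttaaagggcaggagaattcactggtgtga
Dct, chr14:118052247-118052496, minus strand: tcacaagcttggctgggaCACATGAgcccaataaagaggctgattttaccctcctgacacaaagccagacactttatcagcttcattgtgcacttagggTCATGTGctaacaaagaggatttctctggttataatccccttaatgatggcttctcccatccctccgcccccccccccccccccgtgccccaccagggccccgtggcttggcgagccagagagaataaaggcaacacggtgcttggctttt
Trpm1, chr7:64153585-64153834, plus strand: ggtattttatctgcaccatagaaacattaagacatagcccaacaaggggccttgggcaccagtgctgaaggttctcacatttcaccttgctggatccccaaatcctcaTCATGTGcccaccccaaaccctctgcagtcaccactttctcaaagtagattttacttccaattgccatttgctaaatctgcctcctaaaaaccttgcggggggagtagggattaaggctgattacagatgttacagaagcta

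The motif begins 22 bases before the start in Tyr, 47 in Tyrp1 and 142 in Trpm1. Dct holds it at 151 bases on the coding strand and at 232 bases on the other strand, where it reads CACATGA. The same search found it in 0 of 10 matched genes of the visual cycle. The lactate exporter gene Slc16a8, which is compared between genotypes below, lacks the M-box in this window. It holds CTGGCAC, 1 of the 2 letter strings (CTGGCAC and CTGGTAC) known as the core of MYRF binding sites, on the other strand at 95 bases before the start, shown in capitals as GTGCCAG. The same strings were found in 0 of 10 matched visual cycle genes, in 0 of 5 melanin synthesis genes and in 0 of 15 matched genes each of those named below as higher and as lower in Ttr-rich cells. Either string is present in 5.93% of all promoters, and a match of this length is a description of the letters and no evidence of binding.

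Slc16a8, chr15:79254749-79254998, minus strand: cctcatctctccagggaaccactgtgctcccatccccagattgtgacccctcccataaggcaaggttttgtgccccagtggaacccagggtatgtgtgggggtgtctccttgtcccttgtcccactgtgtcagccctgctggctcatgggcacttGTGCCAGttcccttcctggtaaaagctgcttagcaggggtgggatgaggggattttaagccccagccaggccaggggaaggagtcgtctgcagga

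The members were not uniform, and the gene that varied most was Ttr. After each cell was thinned to 2000 UMIs, the variance over the mean of Ttr was 64.0 for control and 184 for mutant members, beside medians of 1.05 and 1.05 over all genes with a mean of at least 0.1. The noncoding RNA gene Malat1 followed in both libraries, with 26.9 and 26.1. Cst3, which encodes the secreted protease inhibitor cystatin C, ranked 3rd in the control and 5th in the mutant, with 20.2 and 9.04, and Ptgds, the lipocalin-type prostaglandin D synthase, ranked 7th in both, with 7.09 and 8.65. Of the 10 most variable genes in each library, 5 were shared. Members were therefore described in 3 ranges of Ttr: no Ttr UMI, below 2000 CPM, and at least 2000 CPM, called Ttr-rich. The limit was set after the values were seen and cuts a continuous range, with 13 control and 3 mutant members between 1000 and 4000 CPM.

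Ttr-rich cells numbered 28 of 153 in the control, or 18.3% (95% Clopper-Pearson interval 12.5 to 25.4), and 7 of 65 in the mutant, or 10.8% (4.44 to 20.9). Cells without a Ttr UMI made up 68.0% and 78.5%. The intervals of the Ttr-rich share overlapped, so a difference was not detectable with this number of cells. Their median depth of 10218 UMIs in control members was below that of cells without Ttr (14650), whereas in mutant members it was above (19126 and 11618). Within the Ttr-rich cells the Ttr level ran from 2060 to 78934 CPM for control and from 3656 to 143761 CPM for mutant cells, where 1 cell held 3089 of the 4241 Ttr UMIs of all members. The sum over all members, 2241 CPM for the control and 4914 for the mutant, thus rested on a few cells: the 5 richest cells held 56.1% and 96.6% of it.

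Ttr-rich cells differed from cells without Ttr in the same library in many genes. A gene was called past the limit when it had at least 30 UMIs over the groups compared, differed by at least 1.5-fold and had a 95% counting interval that excluded 1. In the control 9.93% of 6505 genes were higher and 10.1% lower by this rule, and in the mutant 6.67% of 3627 genes were higher and 7.89% lower. Of the 3615 genes measured in both libraries, 121 were higher in both and 146 lower in both, while 4 were higher in the control and lower in the mutant and 13 the reverse. These 2 contrasts share no cells. Since Ttr itself defined the groups and the ranges were drawn on these cells, the contrasts are a description.

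Most genes of the visual cycle list with enough UMIs were higher in Ttr-rich cells. Of the 8 genes of the visual cycle list with enough UMIs in the control, 7 were higher, and in the mutant 4 of 5, at median log2 ratios of 1.57 and 0.91 against -0.04 and -0.14 over all genes. This list counts Ttr itself. Rdh10, a retinol dehydrogenase that makes retinaldehyde, was at 22.0 CPM in control cells without Ttr and at 939 CPM in Ttr-rich ones, a ratio of 42.7 (29.5 to 63.8), and rose from 18.6 to 313 CPM in the mutant, a ratio of 16.9 (8.45 to 35.9). Rdh5, the 11-cis retinol dehydrogenase, was higher by 10.5-fold in the control and 7.65-fold in the mutant. Rrh, the opsin peropsin of the RPE, was at 7.6 and 235 CPM in the control cells. Rdh10 and Rdh5 were thus higher in Ttr-rich cells of both libraries. Rlbp1, a gene of the rule, had 293 control UMIs without Ttr and 205 in Ttr-rich cells, at 201 and 776 CPM. In the mutant it had 91 and 19 UMIs, at 141 and 186 CPM with overlapping intervals. Of the retinoic acid genes, 1 was higher and 2 lower of 5 in the control (median -0.71), and 0 higher and 1 lower of 3 in the mutant (-0.51).

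Lists of the RPE surface, matrix and lysosome held higher genes as well, and some lower ones. Of the matrix genes, 10 of 21 were higher and 3 lower in control Ttr-rich cells, and 5 of 9 were higher and 0 lower in mutant ones. Of the solute carriers and channels 6 of 13 were higher and 2 lower in the control, and 5 of 8 higher and 0 lower in the mutant. Lysosomal genes were higher in 4 of 14 and 6 of 13 cases and microvillus genes in 4 of 10 and 1 of 2, with 0 lower. Col8a1, a collagen of Bruch's membrane, was 20.8-fold higher in the control (17.8 to 24.4) and 19.3-fold higher in the mutant (14.3 to 26.4). Slc16a8 was at 11 CPM in control cells without Ttr and at 814 CPM in Ttr-rich ones. Bsg, which encodes the chaperone of the lactate transporters, was 2.69-fold and 3.42-fold higher. Ezr, which links microvilli to actin, was 7.78-fold and 8.13-fold higher, and Ctsd, the lysosomal protease cathepsin D, 4.05-fold and 4.29-fold higher. The proteoglycan gene Gpc3 was 10.4-fold and 7.54-fold higher and Ptgds 12.2-fold and 7.52-fold higher.

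The cells without Ttr had more RNA of genes of G2 and mitosis. Of the genes of G2 and mitosis, 15 of 18 in the control and 12 of 16 in the mutant were lower in Ttr-rich cells, and of the S phase genes 6 of 15 and 0 of 6. With each cell thinned to 2000 UMIs, 37.5% of the control cells without Ttr and 43.1% of the mutant ones had UMIs in at least 3 G2 and mitosis genes, against 10.7% of control Ttr-rich cells and 0 of 7 mutant ones. The intervals for Ttr-rich cells, 2.27 to 28.2% and 0 to 41.0%, were wide. Over all members the shares were 28.1% (21.1 to 35.9) in the control and 35.4% (23.9 to 48.2) in the mutant, and a difference between genotypes was not detectable.

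Single genes with high levels set the Ttr-free cells apart most clearly. Pcp4 fell from 1021 CPM in control cells without Ttr to 3.79 CPM in Ttr-rich ones and from 1116 to 166 CPM in the mutant, where all of the latter came from 1 cell. Igfbp7, a secreted growth factor-binding protein, fell from 538 to 3.79 CPM and from 407 to 48.9 CPM. Pax6 fell from 333 to 15.1 CPM among control and from 382 to 97.9 CPM among mutant cells. Otx2 went the other way and rose from 287 to 780 CPM and from 257 to 597 CPM. Wif1, a secreted Wnt inhibitor, was at 189 CPM in control and 89.8 CPM in mutant cells without Ttr and had 0 UMIs in Ttr-rich cells of either library.

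Pigment genes did not follow a common direction. Trpm1 was at 2794 CPM in control cells without Ttr and 905 CPM in Ttr-rich ones, Mlana at 1336 and 682 CPM, and the melanosome traffic GTPase gene Rab38 at 361 and 90.9 CPM, so that all 3 fell. Pmel was 1.52-fold higher in Ttr-rich cells of either library. Tyr, the enzyme of the first step of melanin synthesis, was at 632 and 674 CPM, a ratio of 1.07 (0.90 to 1.25). Markers of other cells moved too: of the mesenchyme markers 7 of 8 in the control and 4 of 7 in the mutant were lower in Ttr-rich cells, and of the neural retina markers 4 of 7 and 3 of 6. Dissociation-induced genes were lower in 3 of 3 cases in the control, with a median of -3.75, and in 0 of 2 in the mutant, and glycolysis genes in 7 of 16, with 1 higher, and in 0 of 14, with 2 higher. The part of other cells and of dissociation in the contrast was not tested.

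**Figure D2:**
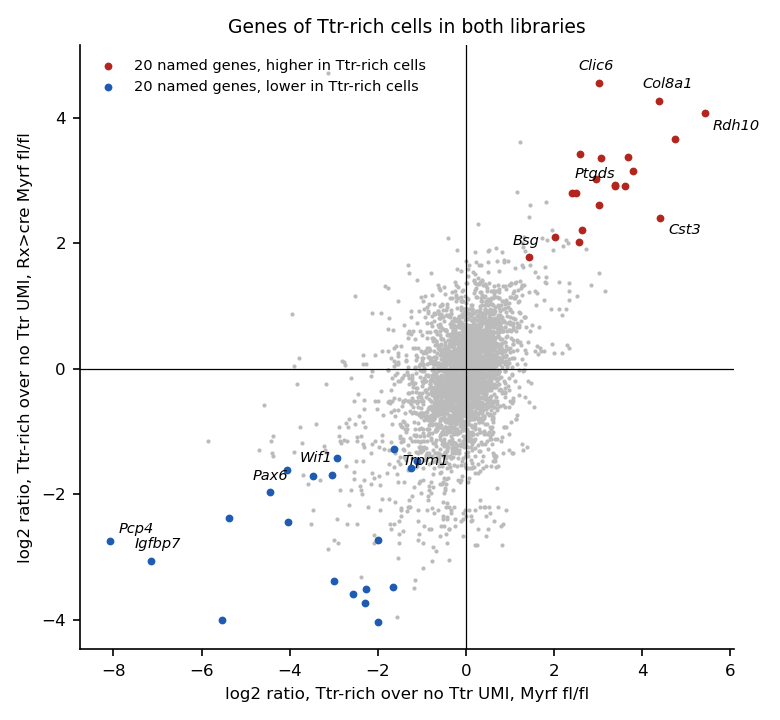
Each point is 1 of the 3615 genes with enough UMIs in both libraries, placed by the log2 ratio of its level in Ttr-rich cells over cells without a Ttr UMI, in Myrf fl/fl on the horizontal axis and in Rx>cre Myrf fl/fl on the vertical axis. The 20 named genes higher in Ttr-rich cells are red and the 20 lower ones blue; Rdh10 (42.7-fold and 16.9-fold) and Col8a1 (20.8-fold and 19.3-fold) stand at the upper right, and Pcp4 and Igfbp7 at the lower left.

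The genotypes were compared first by the targeted gene. Myrf (chr19:10208272-10240748, minus strand, GRCm38) had 125 UMIs in 63 of 153 control members and 27 UMIs in 14 of 65 mutant members, or 62.7 CPM (52.2 to 74.7) and 31.3 CPM (20.6 to 45.5). The ratio was 0.50 (0.32 to 0.76). Retinal progenitors had Myrf at 1.40 and 0.82 CPM, so the mutant members stayed above the level of these cells. The sources used here do not say which exon lies between the loxP sites, and 3′ UMIs outside the deleted part would not show its loss. After thinning to 2000 UMIs a Myrf UMI remained in 9.80% of control members (5.59 to 15.7) and in 4.62% of mutant members (0.962 to 12.9), and the intervals overlapped.

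The Myrf difference was then read by the Ttr level of the cells. In Ttr-rich cells Myrf was at 174 CPM in the control (128 to 232), with 46 UMIs in 20 of 28 cells, and at 19.6 CPM in the mutant (2.37 to 70.7), with 2 UMIs in 1 of 7 cells. In cells without Ttr it was at 39.2 and 29.4 CPM, a ratio of 0.75 (0.42 to 1.28), so that no difference was detectable there at this depth. In the cells between, 80.3 and 52.3 CPM were measured, with overlapping intervals. Control members had 4.45-fold more Myrf in Ttr-rich cells than in cells without Ttr (2.95 to 6.67), and mutant members had 0.67-fold as much (0.07 to 2.76). The difference between the Ttr ranges themselves was not tested, since there was 1 library per genotype.

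**Figure D3:**
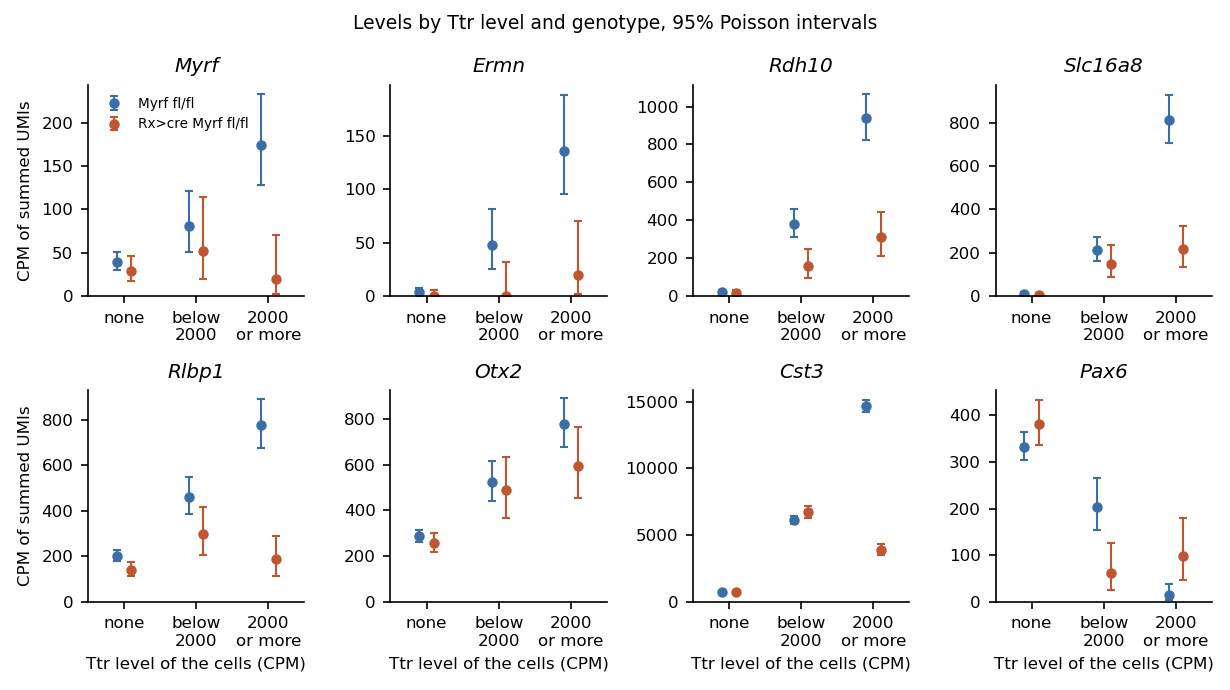
Levels of 8 genes in CPM of summed UMIs (vertical axes, linear, each from 0) by the Ttr level of the cells, with 104, 21 and 28 cells in Myrf fl/fl (blue) and 51, 7 and 7 cells in Rx>cre Myrf fl/fl (red); bars are 95% Poisson intervals for counting error. Among cells of at least 2000 CPM Ttr, Myrf, Ermn, Rdh10, Slc16a8, Rlbp1 and Cst3 are lower in the mutant with intervals that do not overlap, whereas without Ttr the intervals overlap for every gene shown except Rlbp1.

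Over all genes, members of the 2 genotypes were alike in most of what could be measured. Of 8331 genes with at least 30 UMIs, 313 were past the limit as higher in the mutant, which is 3.76% of those tested, and 233 as lower, which is 2.80%, with a median log2 ratio of -0.02. Retinal progenitors, tested on 14612 genes, gave 272 higher and 527 lower. The melanocytes described above, 65 control and 41 mutant cells, were tested on 7082 genes and gave 440 higher and 416 lower. Differences past the limit between the 2 libraries were thus also found outside the members. Of the 313 higher genes, 153 had more than 50% of their mutant UMIs in 5 cells, which shows how far single cells set the upper side. The values for lists of genes are given below as counts against these shares.

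Genes for pigment stayed within the limit between the genotypes, with sums that were lower in the mutant. None of the 9 genes of melanin synthesis and 0 of 12 genes of melanosome transport were past the limit, with medians of -0.25 and -0.14. The summed ratios of the lists were 0.87 (0.85 to 0.89) and 0.90 (0.86 to 0.94). Of the 9 and 12 genes, 2 and 4 lay above the median of all genes. Dct, the dopachrome tautomerase, was at 2326 CPM in control and 2329 CPM in mutant members, a ratio of 1.00 (0.95 to 1.06). Tyrp1 had a ratio of 0.95 (0.84 to 1.07), Tyr of 0.87 (0.79 to 0.97) and Slc24a5, a melanosomal ion exchanger, of 0.76 (0.68 to 0.84). Part of this list chose the cells, so its members were held within bounds by the rule. The 5 pigment genes named above with an M-box, Tyr, Tyrp1, Dct, Slc24a5 and Trpm1, had ratios between 0.76 and 1.00. Tyr and Trpm1 are genes of the rule.

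The visual cycle held more lower genes than the background. Of its 10 genes with enough UMIs, 4 were lower and 1 was higher, against 2.80% and 3.76% of all genes, and the median log2 ratio was -0.37. One of the 4, Rlbp1, was used to choose the cells, and the others were Rdh10, Rrh and Rbp4. In the 104 control and 51 mutant cells without Ttr, 0 of 8 genes of the list were past the limit (median -0.23). Rdh10 had 384 UMIs in 59 control members and 62 UMIs in 18 mutant members, or 193 and 71.8 CPM, a ratio of 0.37 (0.28 to 0.49). Rlbp1 fell to 0.53 (0.44 to 0.64) of the control level, Rrh to 0.43 (0.24 to 0.71) and Rbp4, the plasma retinol-binding protein, to 0.40 (0.17 to 0.82), the last with 9 mutant UMIs. At a mitochondrial share of at most 5% the log2 ratio of Rrh was 0.074. The gene that was higher was Ttr, by the few cells described above. Stra6, the receptor for retinol-binding protein, had a ratio of 0.90 (0.76 to 1.05) and Rdh5 of 0.76 (0.62 to 0.93), so neither passed the limit.

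Read by Ttr range, Rdh10 and Rlbp1, a gene of the rule, had lower ratios in Ttr-rich cells than in cells without Ttr. In Ttr-rich cells, Rdh10 was at 939 CPM for the control and 313 for the mutant, a ratio of 0.33 (0.22 to 0.48), with a median cell at 1051 and at 120 CPM. In cells without Ttr it was at 22.0 and 18.6 CPM, a ratio of 0.84 (0.40 to 1.68). Rlbp1 was at 776 and 186 CPM in Ttr-rich cells, a ratio of 0.24 (0.14 to 0.38), and at 201 and 141 CPM without Ttr, a ratio of 0.70 (0.55 to 0.89). Rrh was at 235 and 39.1 CPM in Ttr-rich cells, the latter from 4 UMIs. Below the Ttr limit Rrh was at 87.6 and 95.9 CPM. Without Ttr it was at 7.56 and 4.64 CPM, from 11 and 3 UMIs. The Ttr-rich mutant cells were 7 in number, and the richest of them held 46.9% of their Rdh10 UMIs and 31.6% of their Rlbp1 UMIs.

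Of the transport and microvillus genes with enough UMIs, Ermn and Slc16a8 had the lowest ratios. Ermn, which encodes the actin-binding protein ermin, had 54 UMIs in 26 control members and 2 UMIs in 2 mutant members, or 27.1 and 2.32 CPM, a ratio of 0.09 (0.01 to 0.32). Of the 54 UMIs, 36 were in Ttr-rich cells, where Ermn was at 136 CPM, and 5 in cells without Ttr. Slc16a8 had 289 UMIs in 47 control members and 43 in 12 mutant members, a ratio of 0.34 (0.24 to 0.47). It was the only 1 of 14 genes for solute carriers, channels and pumps past the limit, while 4 of 14 were lower in Xist cells, 3 of 12 in cells without Ttr, 3 of 13 without the cells rich in retina or mesenchyme markers and 3 of 9 at a mitochondrial share of at most 5%. In Ttr-rich cells it was at 814 and 215 CPM (ratio 0.26, 0.16 to 0.41), and in cells without Ttr at 11 and 6.19 CPM. In Xist cells its log2 ratio was -5.70 in place of -1.54, and that of Rdh10 was -2.80 in place of -1.42. The Xist cells were 105 control and 19 mutant members, and the log2 ratio of Ttr in them was -2.08. Bsg, the partner of Slc16a8, in contrast, had a ratio of 1.00 (0.93 to 1.07) over all members and of 1.12 (0.98 to 1.27) in Ttr-rich cells, at 3068 and 3435 CPM.

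Cst3 showed the division by Ttr with the most UMIs. It had 6564 UMIs in 147 control members and 1648 in 63 mutant members, or 3294 and 1910 CPM, a ratio of 0.58 (0.55 to 0.61). With the cells with Kit or Ednrb UMIs added, its log2 ratio of -0.52 was within the limit. Without Ttr it was at 695 and 738 CPM, a ratio of 1.06 (0.95 to 1.19). In cells with less than 2000 CPM Ttr it was at 6116 and 6721 CPM. In Ttr-rich cells it was at 14684 and 3914 CPM, a ratio of 0.27 (0.24 to 0.30). Single Ttr-rich cells ran from 2865 CPM over a median of 13938 to 33003 CPM in control eye cups and from 1481 over 3369 to 11747 CPM in mutant ones, so the ranges overlapped while the mutant median lay close to the lowest control cells. Cuedc2 also had its lower ratio in Ttr-rich cells, with 1606 CPM in control Ttr-rich cells and a ratio of 0.19 (0.13 to 0.27) there. Unlike Cst3, it was lower without Ttr too, at 0.76 (0.63 to 0.91). The intervals of the ratios in the 2 ranges of Ttr did not overlap for Cst3 and Cuedc2, nor for Rlbp1, a gene of the rule, whereas those of Myrf, Rdh10, Slc16a8 and Trf did.

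Genes of Ttr-rich cells were not all lower in the mutant, however. Ctsd was at 2606 CPM in control and 2848 CPM in mutant Ttr-rich cells, a ratio of 1.09 (0.95 to 1.26), and Gpc3 at 962 and 851 CPM, a ratio of 0.88 (0.69 to 1.13). Otx2 had a ratio of 0.77 (0.57 to 1.02), at 780 and 597 CPM. Col8a1, at 2901 and 1732 CPM, had a ratio of 0.60 (0.50 to 0.70) in Ttr-rich cells and of 0.64 (0.47 to 0.87) in cells without Ttr. Ptgds had a ratio of 0.69 (0.62 to 0.77) in Ttr-rich cells and of 1.11 (0.98 to 1.27) without Ttr. Pax6, which is low in these cells, was at 97.9 against 15.1 CPM, or 6.46-fold higher in the mutant (1.86 to 28.2), with 10 and 4 UMIs, of which 1 mutant cell held 50%.

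Transcription factors of the RPE changed little in sum, with 3 higher and 1 lower of 14 and a median of -0.03. Otx2 had a ratio of 0.85 (0.74 to 0.98), Mitf of 0.73 (0.60 to 0.89), Pax6 of 1.12 (0.96 to 1.30) and Lhx2 of 0.77 (0.63 to 0.94). Sox9, which acts with OTX2 on visual cycle genes, was the lower gene at 117 and 74.2 CPM, a ratio of 0.63 (0.47 to 0.84). Nr2f1, an orphan nuclear receptor of the optic vesicle, was higher at 40.1 and 123 CPM, a ratio of 3.06 (2.27 to 4.14), with 57.5% of its mutant UMIs in 5 cells. Tfec and Vax2, the other higher genes, had 19 and 23 mutant UMIs.

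Matrix genes were lower in 3 of 23 cases and higher in 1, with a median of -0.08. Those that fell were Col9a3, a chain of a fibril-associated collagen, at a ratio of 0.55 (0.43 to 0.71), Vit, which encodes vitrin, at 0.52 (0.36 to 0.75) and the collagen cross-linking enzyme gene Loxl2 at 0.41 (0.21 to 0.75). Col9a3 was 54.0-fold higher in Ttr-rich than in Ttr-free control cells and had a ratio of 0.22 (0.13 to 0.35) between genotypes in Ttr-rich cells. Nid1 was the higher gene, with 17 mutant UMIs, and its log2 ratio turned to -0.97 when the cells with Kit or Ednrb UMIs were added. In Xist cells 0 of 22 matrix genes were higher and 9 lower, with a median of -0.78. Of the microvillus list, Ezr was lower besides Ermn, at 277 and 183 CPM, a ratio of 0.66 (0.55 to 0.79).

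Of the iron genes, Trf, which encodes transferrin, fell to a ratio of 0.32 (0.17 to 0.57), with 100 and 14 UMIs, while the ferritin genes Ftl1 and Fth1 had ratios of 0.90 (0.88 to 0.93) and 0.85 (0.79 to 0.91). Trf was at 189 CPM in control and 29.4 CPM in mutant Ttr-rich cells, but at 17.9 and 17.02 CPM without Ttr. Retinal progenitors had Trf at a ratio of 0.69 (0.54 to 0.87). The ferroxidase gene Cp was higher at a ratio of 3.46, with 14 control and 21 mutant UMIs, of which 5 cells held 85.7%.

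Wnt genes moved in both directions, 3 higher and 2 lower of 13. Fzd4, a receptor for Wnt ligands and norrin, had 122 UMIs in 62 control members and 19 UMIs in 11 mutant members, a ratio of 0.36 (0.21 to 0.59), and was 0.38-fold (0.20 to 0.66) in cells without Ttr alone. Wif1 was lower at 0.50 (0.37 to 0.67), with 275 and 60 UMIs. Wif1 had a ratio of 0.47 (0.35 to 0.63) in cells without Ttr. Wnt5a, Fzd1 and Dkk3 were higher at ratios of 1.60, 1.54 and 1.70. In Xist cells the ratios of Wnt5a and Fzd1 turned below 1, and at a mitochondrial share of at most 5% that of Dkk3 did (log2 ratio -0.025), with 0 higher and 1 lower of 6 Wnt genes. With the cells rich in retina or mesenchyme markers left out, 0 of 8 Wnt genes were higher and 2 lower (median -0.20), and without called doublets 1 of 13 was higher and 2 lower.

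Among higher genes that did not rest on 5 cells for over 50% of their UMIs, the interval farthest above 1 was that of Gas6, the secreted ligand of the TAM receptors that take part in phagocytosis by the RPE. It had 106 UMIs in 55 control members and 106 UMIs in 40 mutant members, or 53.2 and 123 CPM, a ratio of 2.31 (1.75 to 3.05), against 0.94 (0.76 to 1.17) in retinal progenitors. The ratio was 1.84 (1.30 to 2.60) in cells without Ttr and 4.10 (2.16 to 8.02) in Ttr-rich cells. Gas6 passed the limit under all 19 alternative settings. Ptn, the growth factor pleiotrophin, was higher at 2.13 (1.73 to 2.62), the matrix glycoprotein gene Mfap2 at 1.94 (1.65 to 2.28), the noncoding RNA gene Meg3 at 1.92 (1.67 to 2.21) and Ncstn, a subunit of gamma-secretase, at 2.48 (1.58 to 3.89). Meg3, Ptn and Mfap2 fell within the limit when the cells with Kit or Ednrb UMIs were added, at log2 ratios of 0.22, 0.17 and 0.26. Mfap2 was past the limit under 14 of 19 alternatives and not in Xist cells (0.34) or in cells without Ttr (0.58). When cells with UMIs in at least 3 neural retina or mesenchyme markers were left out, Meg3 (0.49), Mfap2 (0.028) and Ncstn (0.73) were no longer past the limit. Meg3 was also within it in Xist cells (0.41), as were Ptn (0.53) and Mfap2 (0.52) without the 5 richest cells of each gene. Rps27rt, a copy of a ribosomal protein gene, was higher at 2.31 in members and at 2.19 in retinal progenitors, and Gm14296 and Gm14305 were lower in members at 0.12 and 0.21 and in progenitors at 0.20 and 0.24, so these 3 differences were not limited to the RPE. All 3 belong to families of near-identical copies, between which the counting could have split reads, which was not tested.

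**Figure D4:**
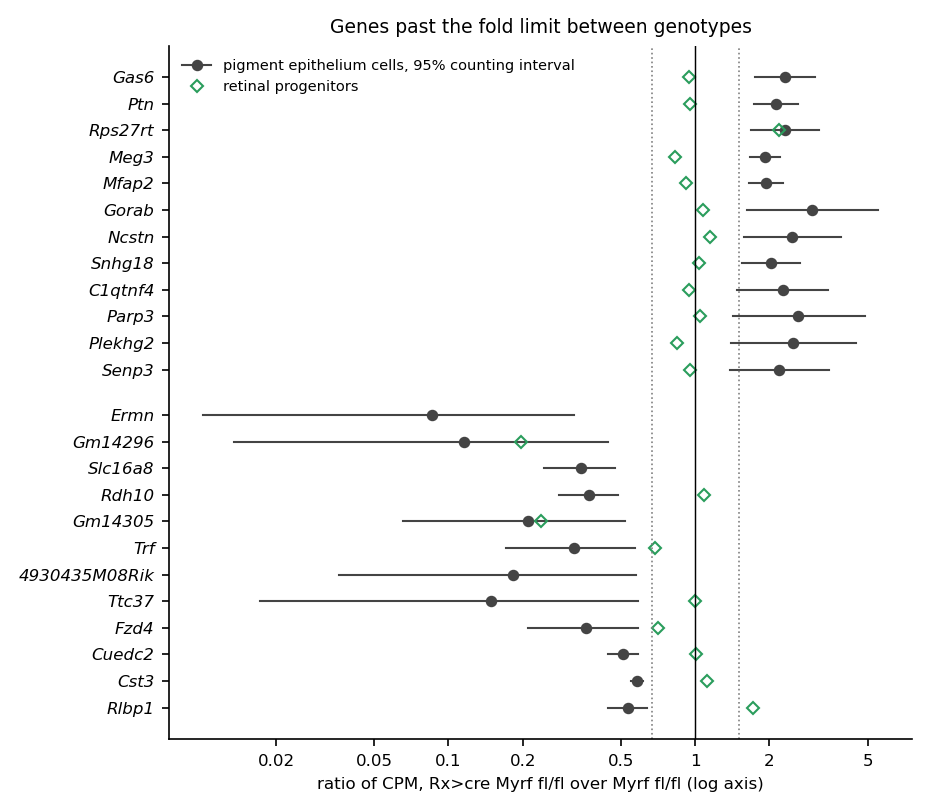
Ratio of mutant over control CPM on a logarithmic axis for the 12 higher and the 12 lower genes named by rule, as filled points with 95% counting intervals for RPE cells, and as open diamonds for retinal progenitors where they had enough UMIs. Dotted lines mark 1.5-fold; in progenitors Rdh10 (1.09), Cuedc2 (1.01) and Cst3 (1.12) lie near 1, whereas Rps27rt, Gm14296 and Gm14305 lie beside their values in RPE cells.

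Most other pathways stood near the background. Of the TGF-beta and BMP genes 0 of 16 were past the limit (median -0.10), of the complement genes 0 of 3, of the S phase genes 0 of 16 (-0.22), of the unfolded protein and stress response genes 0 of 8 (0.04), and of the junction and keratin genes 0 of 7 (0.27). Glycolysis had 1 higher of 20 (-0.18), G2 and mitosis 1 higher of 18 (0.06), Hippo targets 1 higher of 10 (0.20), FGF and ERK feedback 1 higher and 1 lower of 6 (-0.08), and lysosomal genes 1 higher and 1 lower of 14 (-0.15). Dissociation-induced genes had 0 of 4 past the limit (0.12). The G2 and mitosis list moved with the choice of cells, to 14 higher of 14 (2.03) at a mitochondrial share of at most 5% and to 1 higher and 4 lower of 17 (-0.47) with the cells rich in retina or mesenchyme markers left out. With the cells with Kit or Ednrb UMIs added, 3 of 17 TGF-beta and BMP genes were lower (-0.20). Cholesterol and fatty acid synthesis had 1 lower of 12 (-0.11), and 5 lower of 12 (-0.53) with the cells rich in retina or mesenchyme markers left out. Retinoic acid genes had 3 higher and 1 lower of 7 (-0.03), where the synthesis enzyme gene Aldh1a3 and the binding protein gene Crabp1 were higher with 74.1% and 84.0% of their mutant UMIs in 5 cells.

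Among the pathway lists, targets of p53 had the highest share of higher genes, 5 of 11 with a median of 0.55, but the cells behind it were few. Cdkn1a, the cell cycle inhibitor p21, had 3 UMIs in 3 control members and 65 UMIs in 8 mutant members, of which 5 cells held 90.8%. In Ttr-rich cells Cdkn1a had 35 UMIs in 4 of 7 mutant cells, or 342 CPM, and 0 UMIs in the 28 control cells. Of the cyclins and their inhibitors, Cdkn1a and Ccnd1, or cyclin D1, were the 2 higher genes, and 5 cells held 74.3% of the mutant Ccnd1 UMIs. Ccng1 and Phlda3 had 81.0% and 62.0% of their mutant UMIs in 5 cells. When cells with UMIs in at least 3 neural retina or mesenchyme markers were left out, which kept 99 control and 38 mutant members, 1 of 7 p53 targets was higher, the median was -0.05 and the log2 ratios of Ccng1 and Ccnd1 were -0.10 and -0.14. Without cells over 20000 UMIs 1 of 8 targets was higher (-0.063), and without the 5 deepest members of each library 2 of 10 (0.12). In Xist cells 6 of 10 were higher (0.88), at a mitochondrial share of at most 5% 5 of 6 (1.81), and without called doublets 5 of 11 (0.61).

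Markers of other cell types moved with the genotype, above all those of periocular mesenchyme. Of its 10 markers with enough UMIs 9 were higher in mutant members, with a median log2 ratio of 1.89, and their sums were 690.5 and 3372 CPM. In single cells this sum ran from 0 over a median of 171 to 16565 CPM (control) and from 0 over 277 to 31083 CPM (mutant), and the 5 richest cells held 68.3% and 82.2% of it. Of the neural retina markers 6 of 9 were higher and 1 was lower, with sums of 697 and 745 CPM. In Xist cells, the retina list turned to 1 higher and 5 lower of 7 (median -1.41) and the mesenchyme list fell to 1 higher of 8 (0.36). Among the 49 control and 18 mutant members with a mitochondrial share of at most 5%, 1 retina marker was higher and 4 lower of 7 (-1.44), and 6 of 6 mesenchyme markers were higher (3.19). Without the 1 control and 3 mutant members called as doublets, 6 of 9 mesenchyme markers were higher (0.75), and with the cells with Kit or Ednrb UMIs added 5 were higher and 1 lower of 11 (0.21). UMIs in at least 3 mesenchyme markers were found in 33 control and 17 mutant members, and in at least 3 neural retina markers in 31 and 21. Melanocyte, leukocyte, surface epithelium and muscle markers summed to at most 24.1 CPM in either library. With the cells rich in retina or mesenchyme markers left out, 134 genes were higher and 264 lower of 5783, against 313 and 233 of 8331 in all members, so the count of higher genes fell by more than that of genes tested. In the cells that remained, 4 of 9 visual cycle genes were lower, with a median of -0.47. The part of RNA from other cells in the higher genes was not tested further.

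**Figure D5:**
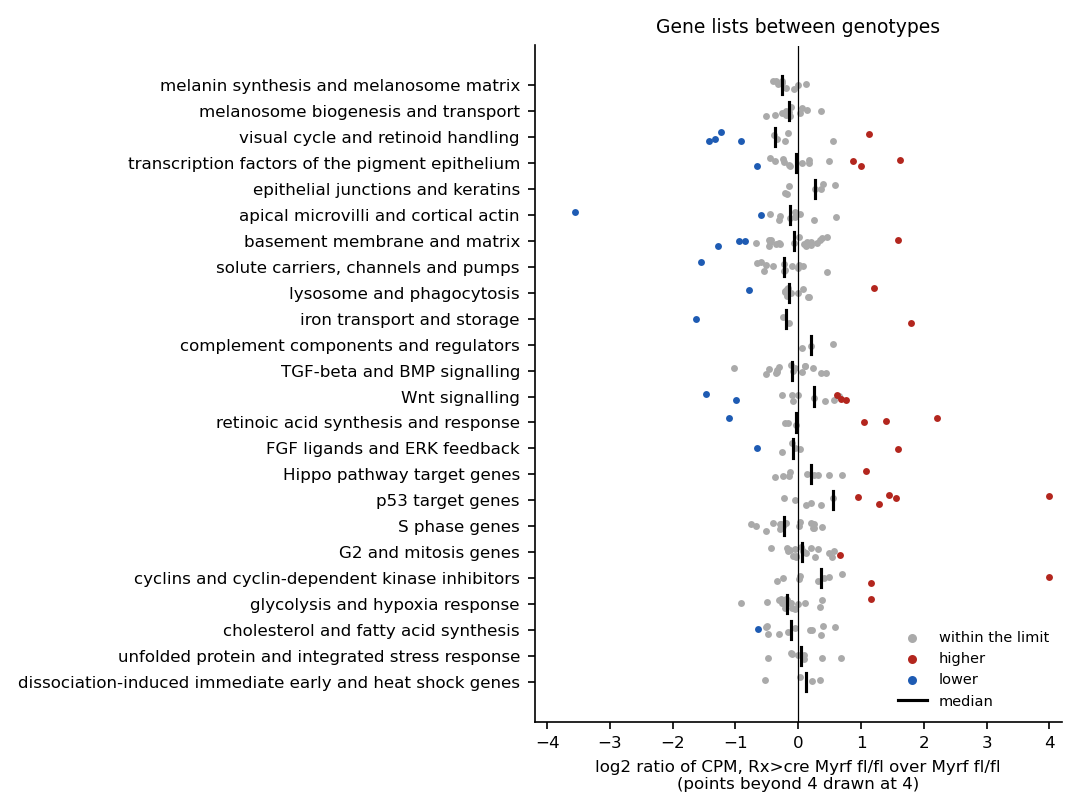
Each point is 1 gene of the named list with at least 30 UMIs, placed by its log2 ratio of CPM in Rx>cre Myrf fl/fl over Myrf fl/fl RPE cells, with points beyond 4 drawn at 4; red and blue points are past the limit of 1.5-fold, grey points are not, and black bars are list medians. The visual cycle has 4 lower genes and a median of -0.37, while melanin synthesis, melanosome transport and TGF-beta and BMP signalling have none past the limit.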

How the data were processed

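The files deposited by the authors hold whole-number UMI counts, 1 library per genotype, of 31053 genes without normalization. The labels name Cell Ranger 7.1.0, Seurat 4.1.1 and mm10 (GRCm38), while version 3.1.0 stands in the matrix headers. The study's methods removed cells above 2000 UMIs as doublets, a limit that no member would pass, so it was not applied here. Scrublet in scanpy 1.11.5 called 1 control and 3 mutant members as doublets, and these were kept and left out only as an alternative. UMIs were summed over the members of a library and given as CPM of their total, with exact Poisson intervals for levels, exact conditional binomial intervals for ratios and Clopper-Pearson intervals for shares (scipy 1.17.1), all at 95%. The intervals assume independent UMIs, which does not hold where a few cells carry a gene, so the share held by the 5 richest cells was computed. Cells are not replicates, and no test was made between genotypes. The scripts were tested on simulated data.

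Retinal progenitors, melanocytes and the remaining quality-filtered cells of each library served for comparison. The remaining cells hold the pigment cells left out of the members. The members, the gene lists and the limits were chosen with earlier results of these data known, and the Ttr ranges after the values were seen. Named genes were the rule and marker genes, list members past the limit or with the most UMIs, the 12 higher and 12 lower genes whose interval lay farthest from 1 without resting on 5 cells for over 50% of their UMIs, the 15 genes most enriched and the 10 most abundant and most variable; Y-linked, Xist, mitochondrial and haemoglobin genes were kept out of the ranked sets. Genes of the contrast by Ttr were the 20 in each direction past the limit in both libraries. Gene coordinates are those of GENCODE M21 on GRCm38, and promoters those of RefSeq on GRCm38.p6. In addition, 19 alternative settings were tried. Other time points of the study were not analysed here.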

Additional observations from a re-analysis of the deposited data

Results flagged for a closer look

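The number of members with UMIs of Y-linked genes differed between the libraries, and these genes were used only to set apart the Xist cells. Of the mutant members, 26 of 65 (40.0%, exact interval 28.0 to 52.9%) had a UMI of Ddx3y, Eif2s3y, Kdm5d or Uty, and of the control members 0 of 153. UMIs of Xist without a Y-linked UMI were found in 105 control and 19 mutant members. Both kinds occurred together in 0 and 4 members, and neither was found in 48 and 20. Among the members with Xist and without Y-linked UMIs, Slc16a8 (log2 ratio -5.70), Rdh10 (-2.80) and Fzd4 (-1.26) were past the limit as lower and Gas6 (1.51) as higher, as in all members, whereas Trf (-0.86) was not.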

How the results depend on the processing

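No paired analysis was possible because there was 1 library per genotype, and no library could be left out for the same reason. The ratio of the share of members stayed within its interval in every alternative that gave a value, between 0.306 and 0.507. The log2 ratio of Myrf of -1.004 became -0.35 (-1.83 to 0.94) in cells thinned to 2000 UMIs and -1.68 when the 5 members with most Myrf were dropped from both libraries, and was -0.41 (-1.25 to 0.36) in cells without Ttr. The 313 higher and 233 lower genes became 60 and 62 in thinned cells, 487 and 625 with the mean of single-cell CPM, 106 and 111 with at least 100 UMIs per gene and 31 and 1097 without the 5 richest cells of each gene, a step that removes a larger share of the 65 mutant than of the 153 control cells. Lower genes numbered 136 at a mitochondrial share of at most 5% and 394 with the cells with Kit or Ednrb added, and higher genes 134 without the cells that had 3 or more retina or mesenchyme markers; the causes were not tested. Of 1589 values for 94 named genes, 1222 stayed within the interval of the reported value, 336 moved out of it and 31 changed sign. The log2 ratios that changed sign were as follows. Without cells over 20000 UMIs, Atoh7 was 2.86, Ccng1 -1.06 and Ttr -0.82. At a mitochondrial share of at most 5%, Dkk3 was -0.025, Fgfr2 0.18, Neurod1 -3.82, Rrh 0.074, Ttr -1.56 and Tubb3 -1.44. With at least 10 Pmel UMIs, Hes5 was -0.14. Without called doublets Atoh7 was 0.12, and without the 5 deepest members of each library 0.28. Without cells with retina or mesenchyme markers, Ccnd1 was -0.14, Ccng1 -0.10 and Fgf15 -0.88. In members with Xist and without Y-linked UMIs, Col1a1 was -0.10, Col1a2 -0.067, Fzd1 -0.37, Hes5 -0.086, Neurod1 -1.74, Ttr -2.08, Tubb3 -1.41 and Wnt5a -0.058. In cells without Ttr, Cst3 was 0.087. With the cells with Kit or Ednrb added, Gap43 was -0.75, Nid1 -0.97 and Tubb3 -1.01. Without the 5 richest cells of each gene, Ccng1 was -0.33, Dcn -0.050, Ttr -2.55 and Ube2c -0.73. Settings for Ttr, for added cells and for the deepest members were chosen after seeing the data. Of 549 list medians, 516 moved by less than 1.5-fold, and the 33 others belonged to 12 of 29 lists, 5 times p53 targets, 7 times neural retina and 7 times mesenchyme markers. The number of cells, above all the 7 mutant Ttr-rich cells, limits what can be resolved: genes below about 30 UMIs were not compared, and embryos could not be told apart within a pool.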

Other observations

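Pigment cells left out of the members fell into separate kinds by Pax3. The 50 control and 25 mutant cells with a Pax3 UMI had Ednrb, the endothelin receptor of melanoblasts, at 1415 and 1423 CPM, Sox10, a transcription factor of the neural crest, at 308 and 341 CPM, and Otx2 at 1.31 and 80.7 CPM. The 105 control and 57 mutant cells with Kit or Ednrb but no Pax3 UMI had Otx2 at 401 and 403 CPM and Rlbp1 at 308 and 233 CPM. Their Myrf level was 79.1 and 29.6 CPM, beside 62.7 and 31.3 CPM in the members. Their median depth of 18425 and 18592 UMIs was above that of the members.

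Lens crystallin RNA was present in the members although the lens had been removed. Cryab, a small heat shock protein that is also made outside the lens, made up nearly all of it, at 632 and 529.5 CPM, and the lens-specific genes Cryaa and Cryba1 had 0 UMIs in either library. Atoh7, which specifies retinal ganglion cells, ranked among the most variable genes of control members, with 330 UMIs of which 5 cells held 94.2%.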
